A study of Mus musculus with 4 samples.

Results

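The genes examined here were 10 surface receptors and signalling adaptors by which macrophages are recognised: Csf1r, Itgam, Adgre1, Fcgr1, Fcgr2b, Fcgr3, Fcer1g, Tyrobp, Mrc1 and Cx3cr1. They were chosen by name, 10 of 21440 protein-coding genes with a known strand, and each ATAC-seq peak whose summit lay between 10 kb before the gene's 5′ end and its 3′ end was read. ATAC-seq cuts accessible DNA with the Tn5 transposase, and a peak is a place where read ends pile up above the local background. The cells were RAW264.7, a wild-type mouse macrophage line, so the libraries are samples of 1 line. All 4 libraries came from cells given 25 ug/mL DIL-oxLDL, an oxidized lipoprotein carrying a fluorescent dye, for 24 h. Control cells (n = 2) were given the solvent DMSO. The esculetin group (n = 2) was given 40 ug/mL esculetin, a plant coumarin. The labels do not say whether the libraries of a group came from separate cultures.

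Macrophages depend on the receptor tyrosine kinase encoded by Csf1r for survival, and they take up antibody-coated particles through Fc receptors. Activating Fc receptors and many other myeloid receptors have short tails and signal through the adaptors encoded by Fcer1g and Tyrobp, which carry the tyrosine motifs read by the kinase Syk. Promoters and enhancers of such genes are usually bound by the myeloid factor PU.1 together with RUNX, C/EBP and AP-1 factors.

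Control replicates 1 and 2 had lists of 19595 and 27833 peaks, and esculetin replicates 1 and 2 had lists of 8677 and 12792, at a genome-wide background coverage of 4.08 to 6.51. The lengths of the lists therefore separated the groups, and the main counts below are set beside the same counts over all coding genes. Control replicate 2 stood apart: a peak at the 3′ end was found in 9.9% of coding genes there, against 3.18% in the other control library and 0.742% and 1.1% with esculetin. Results that involve 3′ ends are thus given with and without that library. Of 10 general macrophage markers, such as Spi1, Cd68 and Ptprc, 8 and 9 had a peak in the same window in the control libraries and 5 in each esculetin library, whereas Cybb had none in any. In the order control replicates 1 and 2, then esculetin replicates 1 and 2, peaks were also called at 3, 1, 0 and 0 of 6 neutrophil markers, 3, 2, 0 and 0 of 7 kidney epithelial markers, 2, 3, 1 and 1 of 5 endothelial markers and 3, 4, 2 and 2 of 6 T cell markers. These lists were lower in both esculetin libraries than in both controls, like the 10 genes. The average coding gene was lower too, with 0.853 and 1.24 window peaks in the controls and 0.434 and 0.603 with esculetin. The share of coding genes with a window peak in each library was not counted. In the same order the numbers were 1, 0, 0 and 0 of 6 epithelial, 2, 1, 1 and 1 of 4 adipocyte, 3, 4, 3 and 3 of 5 dendritic cell and 1, 1, 1 and 1 of 5 B cell markers. Of the calls in these 8 lists, 1 was at a promoter, that of a neutrophil marker in control replicate 1, so that a peak in a window does not by itself identify the cell type. Of the 10 macrophage markers, 4 and 7 had a promoter peak in the controls and 2 and 3 with esculetin. The shares of coding genes were 40.7% and 42.1%, and 30.1% and 37.9%. Fibroblast markers had peaks in control replicate 2 alone, at 4 of 6 genes. These were Pdgfra and the collagen genes Col1a1, Col1a2 and Col3a1, and all 3 collagen genes had a 3′ end peak. Col3a1 also had a promoter peak in that library.

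The sequences before 4 start sites are shown first, because a promoter peak outside tRNA genes was called there in some libraries and not in others. The same held at Tyrobp, which is not shown. A peak lay at the start of Fcgr1 in both control libraries, at those of Fcgr2b and Fcer1g in control replicate 1 alone, and at that of Cx3cr1 in control replicate 2 alone. Each is the 200 bases before the transcription start site (TSS), from RefSeq on GRCm38.p6, read 5′ to 3′ along the gene. Capitals mark the letters GAGGAA (core of PU.1 and other ETS factors), TGTGGT (RUNX), TTGCNNAA (C/EBP) or TGANTCA (AP-1) on either strand.

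Fcgr1 (chr3:96293970-96294169, minus strand): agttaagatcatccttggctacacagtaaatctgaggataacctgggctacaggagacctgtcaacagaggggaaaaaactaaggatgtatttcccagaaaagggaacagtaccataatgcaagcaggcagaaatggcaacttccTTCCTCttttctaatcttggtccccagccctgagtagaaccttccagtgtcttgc

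Fcgr2b (chr1:170976072-170976271, minus strand): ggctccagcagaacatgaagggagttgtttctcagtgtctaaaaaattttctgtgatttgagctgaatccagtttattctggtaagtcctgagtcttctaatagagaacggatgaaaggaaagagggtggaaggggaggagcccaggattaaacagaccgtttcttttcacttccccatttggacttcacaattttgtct

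Fcer1g (chr1:171234350-171234549, minus strand): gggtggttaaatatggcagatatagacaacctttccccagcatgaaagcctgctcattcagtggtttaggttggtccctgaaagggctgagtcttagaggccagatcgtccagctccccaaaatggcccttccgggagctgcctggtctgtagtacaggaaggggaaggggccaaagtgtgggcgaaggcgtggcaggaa

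Cx3cr1 (chr9:120068297-120068496, minus strand): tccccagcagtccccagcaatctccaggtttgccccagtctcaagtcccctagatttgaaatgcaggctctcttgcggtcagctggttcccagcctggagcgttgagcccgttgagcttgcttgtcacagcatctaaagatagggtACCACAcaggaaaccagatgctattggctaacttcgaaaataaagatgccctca

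The stretch before Fcgr1 held 1 match, the reverse complement of GAGGAA, and that before Cx3cr1 held 1 match, the reverse complement of TGTGGT. The stretches before Fcgr2b and Fcer1g held none of these letters. RefSeq windows from 250 bases before to 50 after a start were read for 7 of the 10 genes, in 8 windows, of which 2 overlapping ones belong to Fcgr3. GAGGAA was present in 5 of the 8 windows and in 28.3% of 32851 windows of all genes. The overlapping windows of Fcgr3 are 2 of these 5 and share 1 site. TGTGGT was present in 2 of 8 and in 16.8% of all windows, TTGCNNAA in 2 of 8 (the overlapping windows of Fcgr3) and in 10.8%, and TGANTCA in 0 of 8 and in 7.81%. Of the other letters searched, GGGCGG was present in 2 of 8 and in 35.7%, CCAAT in 2 of 8 and in 37.4%, and TATAAA and CACGTG in 0 of 8 and in 13.6% and 7.15%. Windows of Itgam and Mrc1, which had no promoter peak in any library, each held GAGGAA 3 times.

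Fewer peaks of the 10 genes were called in the esculetin libraries. Control replicates 1 and 2 had 13 and 26 peaks in the 10 windows, and esculetin replicates 1 and 2 had 3 and 4, so the groups did not overlap. The means were 19.5 ± 9.19 and 3.5 ± 0.707 (SD, n = 2 each), and the difference was larger than either SD. The difference of the means was -16.0 peaks, and without control replicate 2 it was -9.5. Without the 3′ end peaks the numbers were 13, 20, 1 and 4. The average coding gene had 0.853 and 1.24 peaks in the same window in the controls and 0.434 and 0.603 with esculetin. No p-value is given for a sum over genes chosen by name. When only the 8581 strongest peaks of each library were kept, so that the lists were equally long, the 10 genes held 3 and 5 peaks in the controls and 3 and 2 with esculetin. These include 3′ end peaks, which were then found at 0 and 4 genes in the controls and at 2 and 0 with esculetin. The mean over all coding genes was not counted at that length. Most control peaks of these genes thus ranked below the length of the shortest list.

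**Figure D1:**
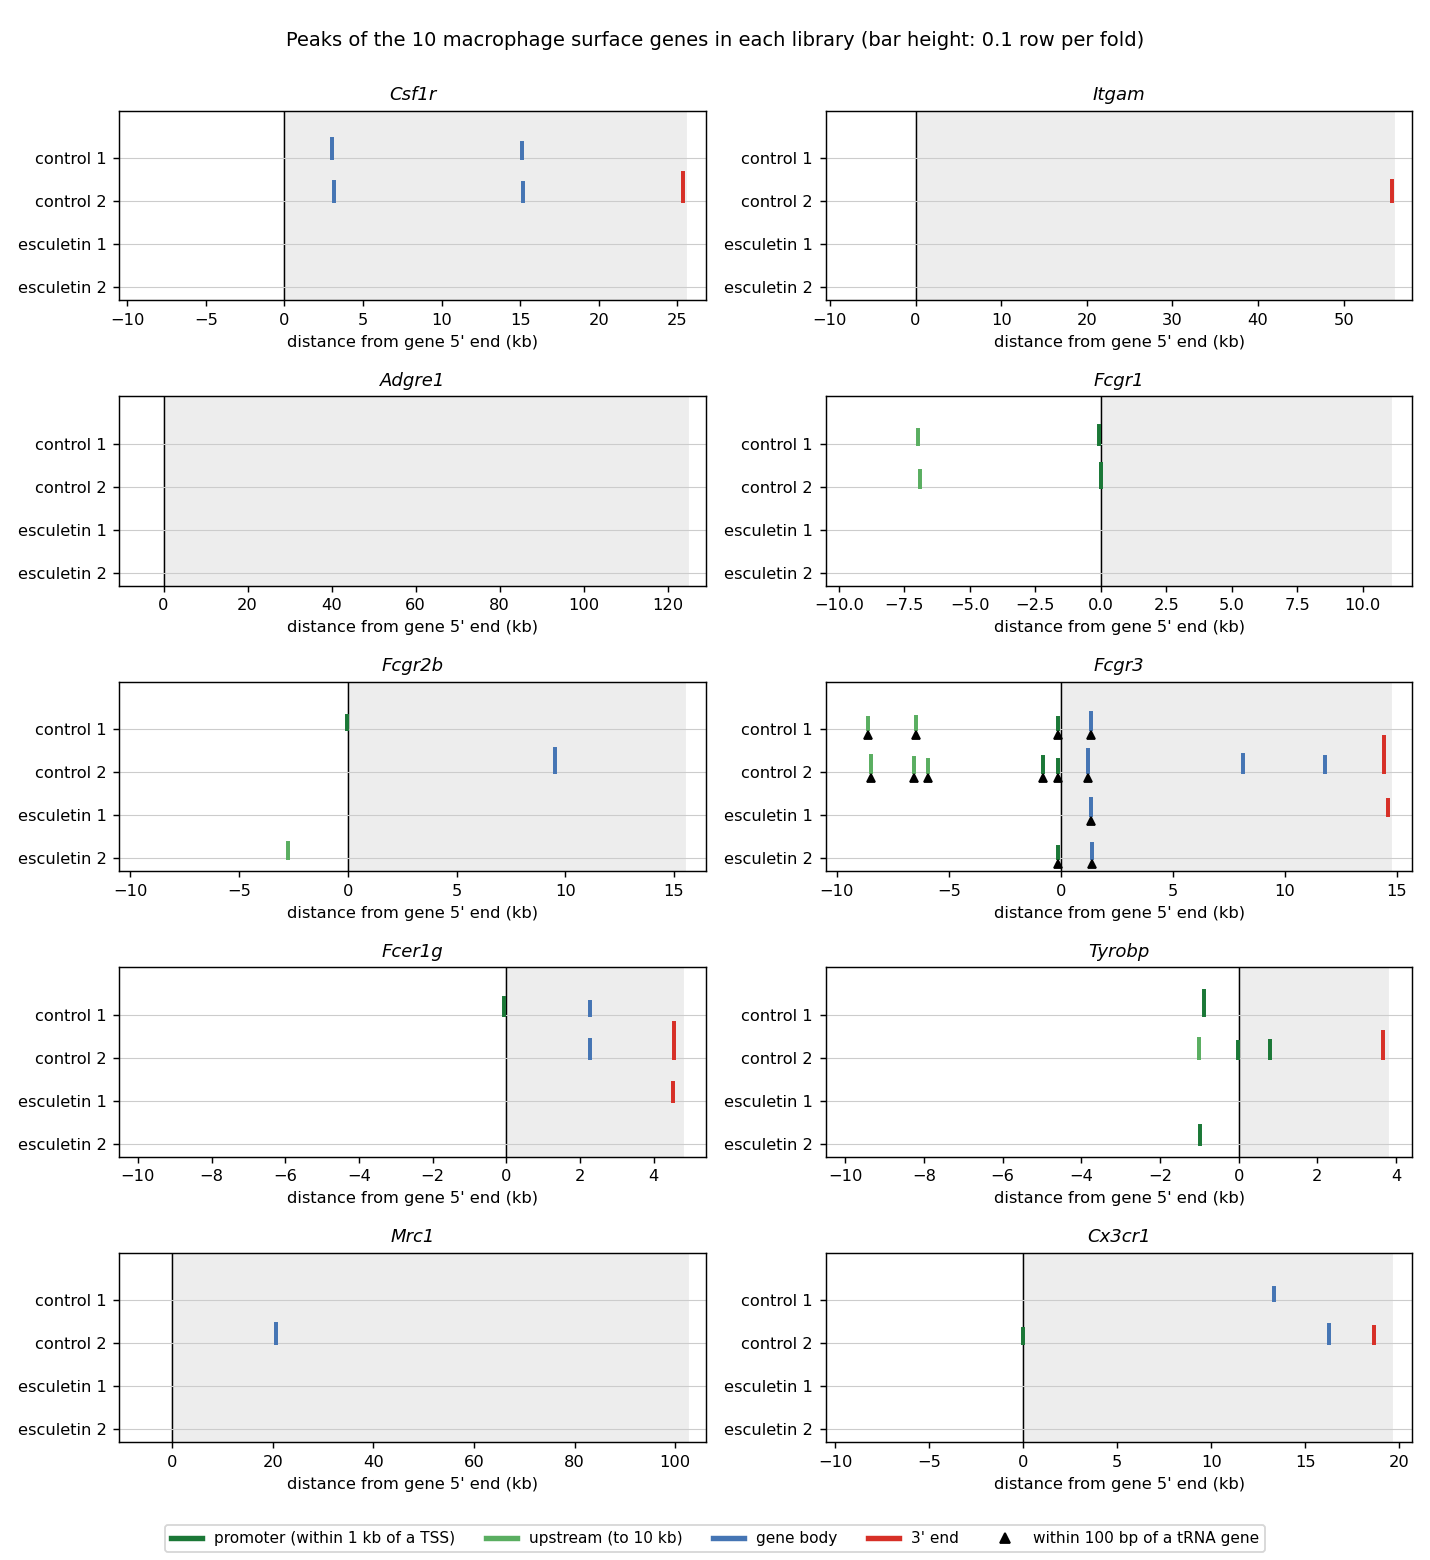
Peaks of the 10 genes, 1 panel per gene, by the distance of the summit from the gene's 5′ end (x axis, kb; the gene is shaded) in each of the 4 libraries (rows). Bar height is the fold enrichment (0.1 row spacing per fold), colours give the position class, and triangles mark peaks within 100 bp of a tRNA gene. The esculetin rows hold 7 bars in all, 4 of them in Fcgr3, and the Adgre1 panel is empty.

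Gene by gene, Csf1r, Fcgr1, Fcgr3, Fcer1g and Cx3cr1 had more peaks in both control libraries than in both esculetin libraries. This pattern was found in 5 of the 10 genes and in 16.0% of coding genes. Outside the 3′ end it held for the same 5 genes and for 14.8% of coding genes. The opposite pattern, more peaks in both esculetin libraries, was found in 0 of the 10 genes and in 0.448% of coding genes. Fcgr3 lies among tRNA genes, as described below, and without peaks at tRNA genes the pattern held for 4 of the 10 genes. The share of coding genes was not recounted without such peaks. At Cx3cr1, 1 of the 4, the control libraries shared no region.

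The peaks merged into 30 regions, of which 18 were called in 1 library and 14 of those in control replicate 2. That library had the longest list, and the same shares were not counted over all 36037 merged regions. Of the 10 regions called in both control libraries, 7 were called in no esculetin library, against 36.2% of all regions called in both control libraries. The other 3 comprised a region upstream of Tyrobp and a pair at tRNA genes of Fcgr3. Of the 7, 2 lay at tRNA genes upstream of Fcgr3 and 5 lay outside tRNA genes. A region missing from a list is not shown to be closed, since its summit may have fallen short of what the peak caller required. Where the local background equalled that of the genome, the lowest fold enrichment called was 2.40 and 2.76 in the controls and 2.68 and 2.75 with esculetin.

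Promoter peaks, with a summit within 1 kb of an annotated TSS, were found at 5 of the 10 genes in control replicate 1 (Fcgr1, Fcgr2b, Fcgr3, Fcer1g and Tyrobp) and at 4 in control replicate 2 (Fcgr1, Fcgr3, Tyrobp and Cx3cr1). Esculetin replicate 1 had 0 and esculetin replicate 2 had 2 (Fcgr3 and Tyrobp). Coding genes as a whole had such a peak at shares of 40.7% and 42.1% in the controls and 30.1% and 37.9% with esculetin. The 10 genes were therefore close to the genome-wide share in the controls and below it in both esculetin libraries. The means were 4.5 ± 0.707 and 1.0 ± 1.41 genes (SD, n = 2 each), and the groups did not overlap. With lists of equal length the numbers were 1 and 0 in the controls and 0 and 1 with esculetin, so that the group means were equal. The share of coding genes in each library at that length was not counted. Promoter calls in both esculetin libraries alone then rose from 0.42% to 4.47% of coding genes. Those in both control libraries alone fell from 3.75% to 0.55%. Equal means therefore do not show that the 10 genes moved as coding genes did.

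Fcgr1 was the only gene of the 10 with a promoter peak in both control libraries and in no esculetin library, a pattern of 3.75% of coding genes. None of the 10 had one in both esculetin libraries alone (0.42% of coding genes), and none had one in all 4 libraries, against 26.9% of coding genes. With equally long lists, 0 of the 10 genes fell in the control-only or in the esculetin-only class, which then held 0.55% and 4.47% of coding genes.

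**Figure D2:**
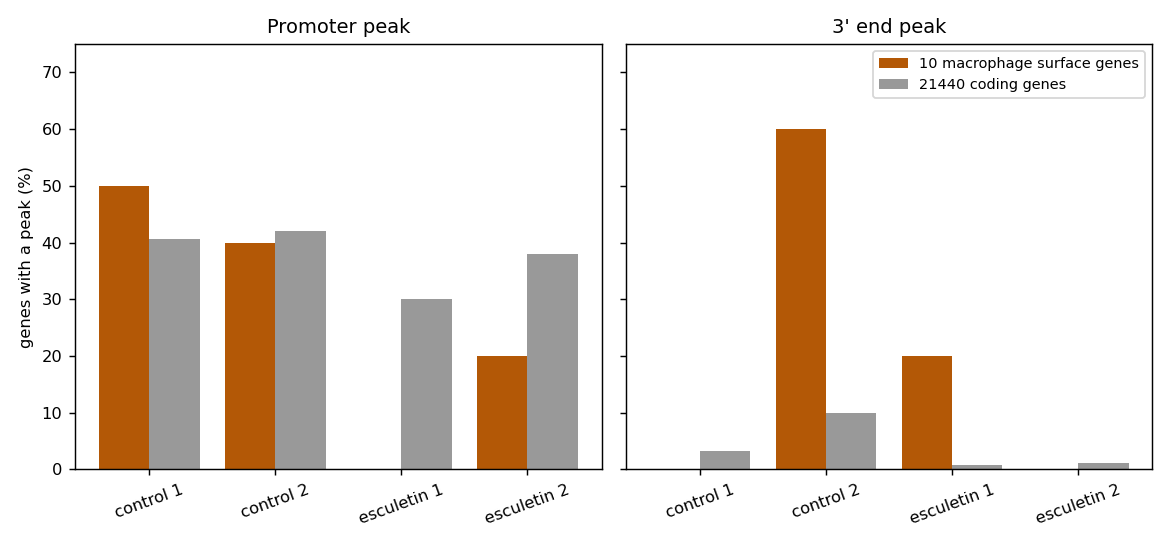
Share of genes (y axis, %) with a promoter peak (left) or a 3′ end peak (right) in each library (x axis), for the 10 macrophage surface genes (brown) and 21440 coding genes (grey). The promoter share of the 10 genes was 50% and 40% in the controls and 0% and 20% with esculetin. The 3′ end share reached 60% in control replicate 2 and 20% in esculetin replicate 1.

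Positions below are in mm10. Csf1r (chromosome 18, 61105572 to 61131139, plus strand) encodes the receptor for the growth factors CSF1 and IL-34. It had no promoter peak in any library, although the gene is known for a strong myeloid enhancer in an intron. Its strongest peak outside the 3′ end lay 3054 bp into the gene in control replicate 1 and 3127 bp into it in control replicate 2. The fold enrichment there was 4.54 and 4.56, at a summit coverage of 48 and 33 reads. The peak ranked 4480 of 19595 in control replicate 1 and 13211 of 27833 in control replicate 2. Neither esculetin library had a peak at this place. The local background there was 9.80 and 6.46 in the controls, above that of the genome (6.51 and 4.08), so that the lowest folds called at the genome-wide background do not give the limit at this place. Another region, 15127 and 15169 bp into the gene, was called with folds of 3.44 and 4.2 in the control libraries and was likewise absent from both esculetin lists. Csf1r thus had 2 and 3 peaks in the control libraries and 0 in each esculetin library.

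Among the Fc receptors, Fcgr1 (chromosome 3, 96282909 to 96293969, minus strand) encodes the high-affinity receptor for IgG. Its promoter peak had a summit 67 bp before the TSS in control replicate 1 and 2 bp after it in control replicate 2, so that the former summit lay within the sequence printed above and the latter just beyond its end. The fold was 4.06 and 5.17, the summit coverage was 31 and 27, and the rank was 10281 and 13519. A weaker peak lay 6964 and 6893 bp upstream in the same libraries, with folds of 3.28 and 3.74. The esculetin libraries had no peak in the window of Fcgr1, so that its 2 regions were both found in the controls alone.

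Fcgr2b (chromosome 1, 170960558 to 170976071, minus strand) encodes the inhibitory receptor for IgG, which carries its own inhibitory motif. Each of its regions was called in 1 library. Control replicate 1 had a promoter peak 18 bp before the TSS, with a fold of 3.06 and rank 17837. Control replicate 2 had a peak 9534 bp into the gene with a fold of 5.32, and esculetin replicate 2 had one 2764 bp upstream with a fold of 3.56. The latter was the only region of the 10 genes seen in an esculetin library alone, and it lay 80 bp from the start of the lncRNA gene Gm34968. Fcgr2b therefore had no region shared by any pair of libraries. Fcgr2b and Fcgr3 are related genes of 1 cluster, and reads from stretches that they share could be lost as multiply mapped.

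Fcgr3 (chromosome 1, 171051169 to 171065915, minus strand) encodes an activating low-affinity receptor for IgG. It had more peaks than any other of the 10 genes, 4 and 9 in the control libraries and 2 in each esculetin library. Of the 17 peaks, however, 13 lay within 100 bp of a tRNA gene, because a cluster of tRNA genes runs through its 5′ part and upstream sequence. tRNA genes are transcribed by RNA polymerase III and are open in most cells, and their near-identical copies lose reads when multiply mapped reads are removed. Over all peaks the share within 100 bp of a tRNA gene was 0.40% to 0.57% in the 4 libraries. The only region of the 10 genes called in all 4 libraries was of this kind. It lay at 171063815 to 171064938 on chromosome 1, over the tRNA gene n-TEctc5 and within 122 bp of the start of Mir6546. The summits were 1225 to 1385 bp inside Fcgr3.

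At that region control replicates 1 and 2 had folds of 3.71 and 5.12. Esculetin replicates 1 and 2 had folds of 3.75 and 3.22. The summit coverage was 54, 55, 56 and 43 reads, over local backgrounds of 13.8, 9.94, 14.2 and 12.7 in the same order, which were higher than the genome-wide background in every library. To compare libraries, each fold was divided by the median fold of the 6181 regions called in all 4 libraries (4.97, 5.96, 5.03 and 6.12). On the log2 scale this relative fold was -0.42 and -0.22 in the controls, and it was -0.42 and -0.93 with esculetin. The difference of the means was -0.35 (exact permutation test over the 4 libraries, two-sided, p = 0.67). The smallest p this test allows with n = 2 per group is 0.33. Without esculetin replicate 2 the difference was -0.10, and with the solved summit coverage in place of the fold it was 0.026, in the opposite direction. Esculetin replicate 1 equalled control replicate 1, so the groups overlapped.

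Both promoter regions of Fcgr3 were at tRNA genes. One overlapped n-TLcag6, with summits 138, 115 and 109 bp before the 5′ end of Fcgr3 in control replicates 1 and 2 and esculetin replicate 2. Its fold was 2.55, 2.76 and 2.58. The other, over n-TGgcc12, was called in control replicate 2 alone, 796 bp before the 5′ end, and was the stronger of the pair there (fold 3.45, rank 16511, against rank 25182). RefSeq also starts transcripts of Fcgr3 further inside the gene, at 171059394 and 171059403, and within 1 kb of these starts no peak was called. Without peaks at tRNA genes, Fcgr3 kept 0 and 3 peaks in the controls and 1 and 0 with esculetin. None of these was at a promoter, and genes with a promoter peak then numbered 4 and 3 in the controls and 0 and 1 with esculetin.

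Fcer1g (chromosome 1, 171229572 to 171234349, minus strand) encodes the common γ chain, through which Fcgr1 and Fcgr3 products signal. Control replicate 1 was the only library with a promoter peak, 74 bp before the TSS, with a fold of 3.87 and a summit coverage of 36. Both control libraries had a peak in the middle of the gene, 2262 and 2259 bp from the TSS, with folds of 3.02 and 4.13. No esculetin library had either of them. The only esculetin peak of Fcer1g lay at its 3′ end in replicate 1.

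Tyrobp (chromosome 7, 30413782 to 30417582, plus strand) encodes DAP12, the adaptor of TREM2 and related receptors. It was the one gene with a region outside the tRNA cluster shared between both control libraries and an esculetin library. That region lay at 30412638 to 30413304, with summits 876 and 1016 bp upstream in control replicates 1 and 2 and 979 bp upstream in esculetin replicate 2. It straddles the 1 kb limit, so that it counted as a promoter in control replicate 1 and esculetin replicate 2 and as upstream in control replicate 2. The fold was 5.40, 4.30 and 4.06, and the peak ranked 2980 of 19595, 11085 of 27833 and 6780 of 12792. Esculetin replicate 1 had no peak in the window. Control replicate 2 also had peaks 17 bp before and 791 bp after the TSS (folds 3.64 and 3.93), and the former lay 46 bp from the start of the lncRNA gene Gm32029.

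The remaining genes had few peaks. Cx3cr1 (chromosome 9, 120048683 to 120068296, minus strand), which encodes the receptor of fractalkine, had a promoter peak in control replicate 2 alone, 28 bp before the TSS, with a fold of 3.33 and rank 25371 of 27833. It had further peaks 13315 bp into the gene in control replicate 1 (fold 2.89) and 16256 bp into it in control replicate 2 (fold 4.17), and none in the esculetin libraries. Mrc1 (chromosome 2, 14229414 to 14332023, plus strand), the mannose receptor of alternatively activated macrophages, had 1 peak, 20648 bp into the gene in control replicate 2 (fold 4.53). Itgam (chromosome 7, 128062640 to 128118491, plus strand), the αM integrin chain of a complement receptor, had a 3′ end peak in control replicate 2 and nothing else. Adgre1 (chromosome 17, 57358581 to 57483529, plus strand), which encodes the macrophage surface antigen used to stain these cells, had no peak in any library, as did 36.0% of coding genes. The number of peaks therefore did not separate the groups at Itgam, Mrc1 and Adgre1.

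Peaks at the 3′ end, in the last 0.1 of the gene's length or its last 1 kb, were described apart. Control replicate 2 had one at 6 of the 10 genes (Csf1r, Itgam, Fcgr3, Fcer1g, Tyrobp and Cx3cr1), against 9.9% of coding genes in that library. Esculetin replicate 1 had one at Fcgr3 and Fcer1g (2 of 10, against 0.742% of coding genes), and the other libraries had none at the 10 genes (3.18% and 1.1% of coding genes). The groups thus overlapped, and the order of their means rested on control replicate 2, without which the esculetin group was higher by 1.0 gene. The 4 strongest peaks of the 10 genes in control replicate 2 were all of this class. They lay at Fcer1g (fold 8.09, rank 1526, summit 235 bp from the 3′ end), Fcgr3 (8.24, rank 2032, 310 bp), Tyrobp (5.97, rank 2233, 121 bp) and Csf1r (6.60, rank 2858, 222 bp). The 3′ peaks of Itgam (fold 4.73) and Cx3cr1 (fold 3.65) were weaker. In esculetin replicate 1 the 3′ peaks of Fcer1g and Fcgr3 had folds of 4.03 and 3.50, lower than in control replicate 2, with summits 251 and 128 bp from the 3′ end. Of the 10 general macrophage markers, 6 had a 3′ end peak in control replicate 2 and 1, 1 and 0 in control replicate 1, esculetin replicate 1 and esculetin replicate 2. The collagen genes named above moved with these peaks in control replicate 2, and their part in the 3′ end peaks of the 10 genes was not tested.

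**Figure D3:**
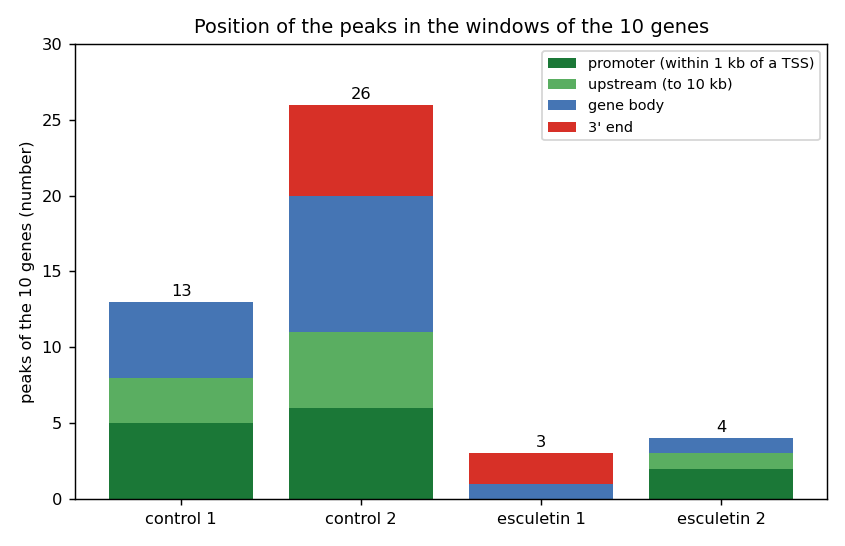
Number of peaks in the windows of the 10 genes (y axis) in each library (x axis), split by position: promoter, upstream, gene body and 3′ end. Totals are 13 and 26 in the controls and 3 and 4 with esculetin, and 6 of the 26 peaks of control replicate 2 are at 3′ ends.

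The strength of the peaks was then set against all peaks of the same library and against the regions called in every library. The median fold of the peaks of the 10 genes was 3.28 and 4.15 in the controls and 3.75 and 3.39 with esculetin. The median over all peaks of those libraries was 3.97 and 4.88, and 4.52 and 4.74, so that the median of the 10 genes was the lower one in every library. A fold above the median of all peaks was found for 3 of 13 and 7 of 26 peaks in the controls and for 0 of 3 and 0 of 4 with esculetin. Relative to the median of the regions called in all 4 libraries, which are stronger by their selection, the medians of the 10 genes were 0.661, 0.696, 0.747 and 0.554. In control replicate 1 the Tyrobp upstream peak was the only one with a fold above that of the shared regions. In control replicate 2 only 3′ end peaks were at or above it (those of Fcgr3, Fcer1g and Csf1r, and that of Tyrobp at the median itself), and in the esculetin libraries none was. These values describe peaks that passed the limit of the caller in their own library, and for that reason were not tested between groups.

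**Figure D4:**
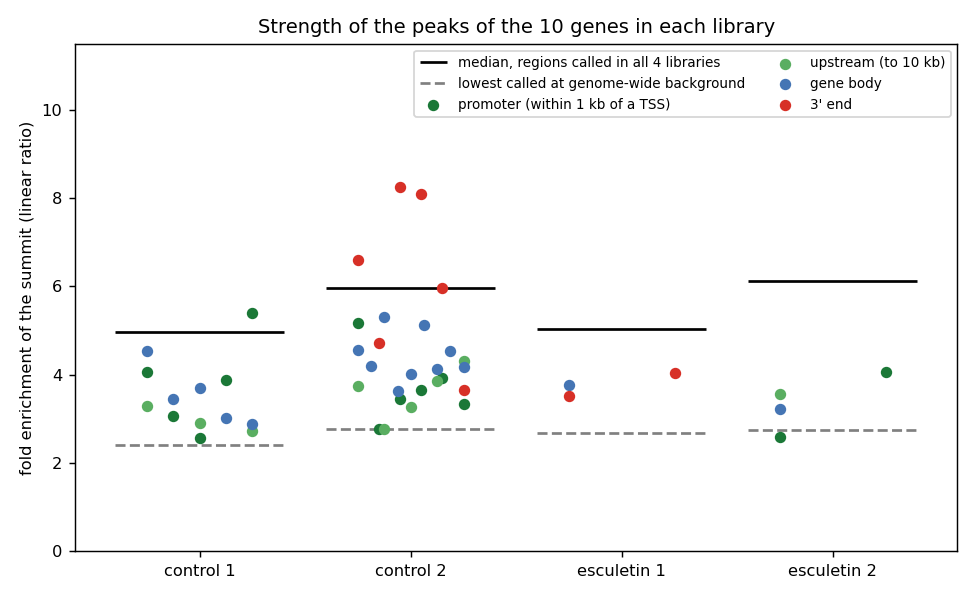
Fold enrichment of each peak of the 10 genes (y axis, linear ratio; 1 point per peak, spread sideways to avoid overlap) by library (x axis), coloured by position class. Solid lines give the median of the 6181 regions called in all 4 libraries (4.97, 5.96, 5.03 and 6.12), and dashed lines the lowest fold called at the genome-wide background. Most points lie between the lines, points under a dashed line have a higher local background, and the highest points are the 3′ end peaks of control replicate 2.

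The same calls were read for 75 related genes in 6 lists. A promoter peak was found at 26 and 27 of them in the control libraries (34.7% and 36.0%) and at 4 and 17 in the esculetin libraries (5.33% and 22.7%). Coding genes as a whole had 40.7% and 42.1%, and 30.1% and 37.9%. A promoter peak in both control libraries and in no esculetin library was found at 15 of the 75 genes (20%), against 3.75% of coding genes. The opposite pattern was found at 0, against 0.42%. With equally long lists the control-only pattern was found at 1 of 75 (1.33%), namely Siglech, against 0.55% of coding genes. The opposite pattern was then found at 0 of 75, against 4.47% of coding genes. At that length the promoter numbers were 7 and 6 in the controls and 4 and 6 with esculetin, so that the groups overlapped at 6 genes. The share of all coding genes in each library was not counted at that length.

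In the list of the CSF1 receptor axis and related cytokine receptors, 3 of 8 genes had this control-only pattern: the ligand gene Csf1, and Csf2rb and Csf2rb2, which encode β chains of cytokine receptors and are close copies of each other. No esculetin library had a promoter peak in this list. Among 19 further Fc receptors, kinases, adaptors and phosphatases it was found at 5, among them the Src-family kinase Lyn, the adaptor Lcp2, the lipid phosphatase Inpp5d and the lipid kinase Pik3cd. Cbl and Pik3r1 had a promoter peak in all 4 libraries. Syk, which reads the motifs of Fcer1g and Tyrobp, had one in both control libraries and esculetin replicate 2.

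Among 12 partners of Tyrobp and related receptors, Trem2, Siglech and Cd33 had the control-only pattern. The adaptor gene Hcst, a neighbour of Tyrobp, had a promoter peak in control replicate 1 and esculetin replicate 2. Of 11 integrin genes, Itgb1 had the pattern, and Itgav and Itga4 were called in all 4 libraries. Itgb2, whose product pairs with that of Itgam, was called in control replicate 1 and esculetin replicate 2. Clec4e and Clec10a, 2 of 15 C-type lectins and resident macrophage genes, and C3ar1, 1 of 10 chemotactic receptors, completed the set. Esculetin replicate 1 had the lowest number in each of the 6 lists, equalled by esculetin replicate 2 in 2 of them.

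**Figure D5:**
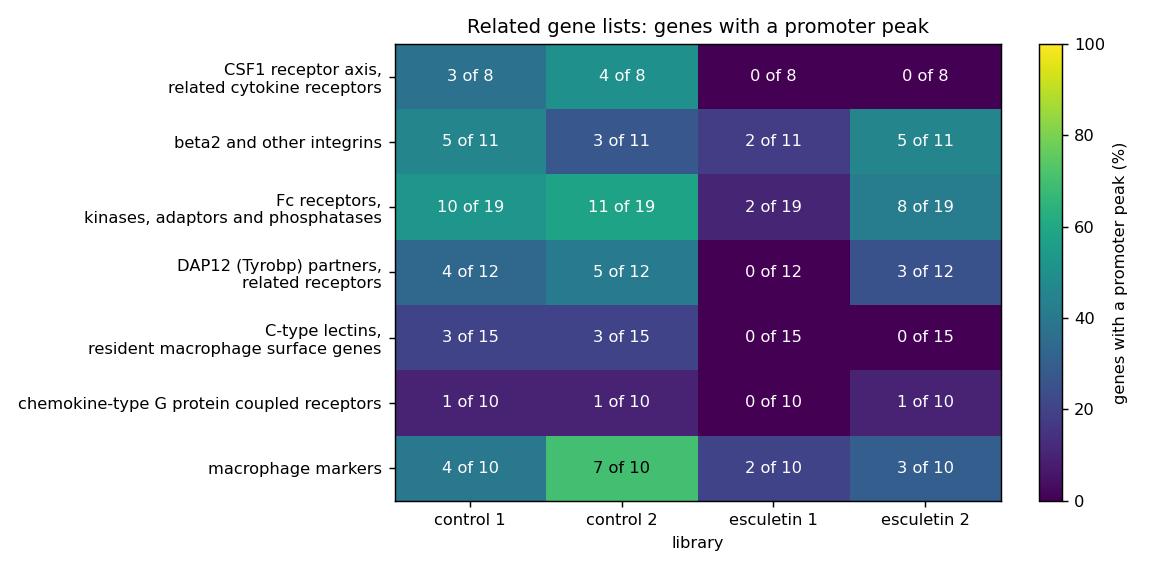
Genes with a promoter peak in each library (columns) for 6 related lists and the general macrophage markers (rows). Cells give the number of genes and colour gives the percentage. The CSF1 receptor axis has 3 and 4 of 8 genes in the control libraries and 0 in both esculetin libraries, whereas integrins have 5 and 3 of 11 against 2 and 5.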

How the data were processed

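Per the methods of the study, reads were trimmed with Trim Galore, aligned to mm10 with Bowtie2, filtered with Sambamba for duplicates and multiple mapping, and passed to MACS2. There is 1 deposited peak list per library. Caller options are not given in the sources used here. The authors' deposited lists give the summit, its fold enrichment (a linear ratio over the local background), its −log10 p and −log10 q, and a score. Ranks use the −log10 p. Peak names inside the esculetin lists end in numbers other than those of their labels, and libraries were named by the labels.

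Genes were taken from RefSeq on GRCm38.p6, the assembly of mm10. TSSs were the starts in its promoter table and each gene's 5′ end, with the strand of GENCODE vM39 where that table had none. From either source, a strand was found for 97.96% of 21887 coding genes. Exons were not used here. MACS2 writes the fold as summit coverage plus 1 over background plus 1, and p as a Poisson tail, so coverage and depth were solved for (100.0% of the peaks tried). Regions are overlapping peaks merged over libraries, on chromosomes 1 to 19, X and Y. The lists hold no read counts, so no count model was fitted. Class assignment and solving were checked on simulated data. All 10 genes are named, and of the related lists those with a group-specific or all-library promoter call or that define a list, except 1 gene that is not reported here. The genes, lists and tests were chosen with earlier results of these data known. Python 3.11.15, pandas 2.3.3 and SciPy 1.17.1 were used.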

Additional observations from a re-analysis of the deposited data

How the results depend on the processing

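With 2 libraries per group no exact permutation test can fall below p = 0.33, so the differences below are given as directions and sizes, with no p. The lower number of genes with a promoter peak in the esculetin group (difference -3.5) ranged from -2.5 to -4.5 when 1 library was left out and kept its direction under the other alternatives, except with lists of equal length, where it was 0.0. The lower number of peaks (-16.0) ranged from -9.5 (without control replicate 2) to -22.5 (without control replicate 1) when 1 library was left out. Lists of equal length gave -1.5, and windows from 50 kb upstream, which hold other genes, gave -31.0. The cause of the shorter esculetin lists was not tested. The difference in genes with a 3′ end peak (-2.0) ranged from -5.0 to 1.0, the latter without control replicate 2. The log2 relative fold at the tRNA region of Fcgr3 (-0.35) ranged from -0.10 to -0.60 when 1 library was left out and was 0.026 with solved summit coverage in place of the fold. Differences within pairs of equal replicate number (replicate block) averaged -3.5 genes and -16.0 peaks, the same as the unpaired values, and nothing in the labels says that equal numbers share a culture. Leaving out peaks within 100 bp of a tRNA gene was chosen after seeing the data, as was the equal-length setting for the related lists. It gave -3.0 genes and -12.5 peaks and left no region called in all 4 libraries. Depth limits calls to summits of at least 13 to 17 reads at the genome-wide background.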
